A study of Caenorhabditis elegans with 4 samples.

Results

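The 10 genes described here encode the core proteins that carry neurotransmitter and neuropeptide vesicles to the nerve terminal and fuse them with its membrane: unc-104, rab-3, unc-31, unc-13, unc-18, unc-10, unc-64, snb-1, ric-4 and snt-1. They form a fixed list of genes of that role, chosen from genes whose signal scores and ranks in these data were already known, and their regions are every deposited region whose summit lies in the annotated gene body or within 5 kb of it. They are 10 of 19865 nuclear protein-coding genes of the Ensembl annotation. The assay was chromatin immunoprecipitation with sequencing (ChIP-seq) against an EGFP-tagged CES-1 in whole mixed-sex *Caenorhabditis elegans* at the L4 larval stage. All 4 libraries are biological replicates of strain OP174, which carries the unc-119(ed3) mutation and the integrated transgene wgIs174 with ces-1 fused to TY1, EGFP and FLAG and with unc-119 as the rescuing gene. There is no second condition. The labels give a fragment size range of 150 to 350 bp and worms from a stock centre (CGC) for the first 2 replicates. Replicates 3 and 4 are labelled with microtip sonication and with worms of the producing laboratory, so these steps cannot be told apart.

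The tagged protein belongs to the Snail family of zinc finger transcription factors and is known for helping to decide which of certain sister cells of pharyngeal neurons die. Synaptic vesicles and dense-core vesicles are moved along the axon by a kinesin, docked and primed by a set of scaffold and priming proteins, and fused by the SNARE proteins when calcium binds a sensor. Synaptic vesicles release classical transmitters, and dense-core vesicles release neuropeptides. These proteins act in neurons and in other secretory cells, and DNA of whole worms does not separate the cells from which a signal came.

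Each library is deposited as a list of 30000 regions. A pooled list of 25493 regions was made from all 4 alignments, and 1033 peaks pass the submitters' irreproducible discovery rate (IDR) step. All 1033 IDR peaks were the strongest pooled regions by signal score: the lowest had a score of 44.2, and 0 pooled regions outside the IDR list lay above it. The score (signal on the figure axes) is the submitters' own, its scale is not stated, and it is compared here only within a list. Ranks are counted from 1, the strongest, within a list. The read depth of the libraries is unknown, so no counting interval is given. The members were chosen with results of these lists known, so every value below is a description, and no test set the members against other genes. Near the end, a critical value for outliers was used only to flag libraries that lay far from the others.

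Of the 10 members, 5 had an IDR peak: unc-104 and ric-4 with 2 each, and rab-3, unc-31 and unc-18 with 1 each. Among all protein-coding genes the share with an IDR summit in the same window was 10.6%. The window grows with the gene, and 8 of the members have a body of 5 kb or more, of which 4 had an IDR peak. Among all protein-coding genes of that length the share was 16.6%. Per unit of sequence, the members' windows held 34.8 IDR peaks per Mb, against 10 per Mb over the nuclear genome. The same windows held 592.3 pooled regions per Mb, against 254.0 per Mb. Genes differ in how much intergenic and intronic sequence surrounds them, and this was not adjusted for.

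The DNA at these 7 summits is the material of the finding, and it is printed here for 100 bases on each side of each summit. The sequences are those of the WBcel235 (ce11) assembly of RefSeq, 5′ to 3′ on the strand of the member gene. Capitals mark each CANNTG, the E-box, a core that reads as CANNTG on both strands and that includes CAGGTG, the form bound by Snail-family proteins.
unc-104 first peak, chromosome II, chrII:6994750-6994950, forward strand: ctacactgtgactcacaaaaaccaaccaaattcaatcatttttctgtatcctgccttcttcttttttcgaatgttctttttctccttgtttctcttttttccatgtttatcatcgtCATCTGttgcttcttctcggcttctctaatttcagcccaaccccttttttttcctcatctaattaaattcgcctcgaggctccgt
unc-104 second peak, chromosome II, chrII:6995720-6995920, forward strand: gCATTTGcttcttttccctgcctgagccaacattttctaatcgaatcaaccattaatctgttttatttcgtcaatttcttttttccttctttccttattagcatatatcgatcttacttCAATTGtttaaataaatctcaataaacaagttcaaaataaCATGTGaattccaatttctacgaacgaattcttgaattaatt
rab-3 peak, chromosome II, chrII:5725264-5725464, reverse strand: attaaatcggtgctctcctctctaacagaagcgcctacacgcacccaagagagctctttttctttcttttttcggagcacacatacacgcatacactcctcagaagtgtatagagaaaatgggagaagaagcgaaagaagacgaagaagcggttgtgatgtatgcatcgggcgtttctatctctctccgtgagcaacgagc
unc-31 peak, chromosome IV, chrIV:12773663-12773863, forward strand: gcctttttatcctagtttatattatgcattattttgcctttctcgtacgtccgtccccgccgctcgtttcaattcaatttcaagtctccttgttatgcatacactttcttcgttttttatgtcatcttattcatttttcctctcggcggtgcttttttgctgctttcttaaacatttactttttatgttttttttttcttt
unc-18 peak, chromosome X, chrX:7679857-7680057, strand of unc-18 (forward): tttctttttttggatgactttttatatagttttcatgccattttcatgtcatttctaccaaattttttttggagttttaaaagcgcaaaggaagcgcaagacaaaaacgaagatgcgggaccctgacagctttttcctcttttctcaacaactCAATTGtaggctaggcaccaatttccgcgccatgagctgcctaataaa
ric-4 peak nearer the first 5′ end, chromosome V, chrV:10266154-10266354, reverse strand: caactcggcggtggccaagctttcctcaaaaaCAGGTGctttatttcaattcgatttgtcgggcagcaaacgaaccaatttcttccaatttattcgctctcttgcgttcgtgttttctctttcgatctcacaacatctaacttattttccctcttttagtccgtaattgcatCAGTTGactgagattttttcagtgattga
ric-4 stronger peak, chromosome V, chrV:10265096-10265296, reverse strand: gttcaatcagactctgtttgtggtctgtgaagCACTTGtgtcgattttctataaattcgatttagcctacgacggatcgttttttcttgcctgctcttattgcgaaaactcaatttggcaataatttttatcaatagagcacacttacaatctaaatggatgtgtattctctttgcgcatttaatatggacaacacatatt

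An E-box lay in 5 of the 7 windows (71.4%), against 525 of 1007 nuclear IDR peaks (52.1%) and 13125 of 25466 nuclear pooled regions (51.5%) over windows of the same length. The second unc-104 window held 3 E-boxes, the most of the 7. The rab-3 and unc-31 windows held 0. CAGGTG, searched on both strands, lay in 1 of the 7, the ric-4 window nearer the first 5′ end, where it starts at position -68 counted from the summit. Its share was 2.09% of nuclear IDR peaks and 4.25% of nuclear pooled regions. Among all 119 pooled regions at the members it lay in 6 (5.04%). A match is a description of the letters, not a binding site. The windows ranged in GC content from 28.9% at the second unc-104 peak to 46.8% at rab-3, with a median of 37.8%, against a median of 39.8% for all nuclear IDR peaks.

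The transport gene had the strongest peak. unc-104 encodes the kinesin-3 motor that carries synaptic vesicle precursors and dense-core vesicles out of the cell body. The gene lies on chromosome II from 6994987 to 7010625 on the forward strand. Its strongest peak, from 6994678 to 6995021, had a pooled score of 122.9 and ranked 87 of 1033, and its summit lay between genes, 137 bp upstream of the first annotated 5′ end. The overlapping region scored 38.3, 46.4, 20.8 and 21.6 in replicates 1 to 4. Its ranks were 88, 89, 71 and 261 in replicates 1 to 4. It was near the top of all 4 lists of 30000 regions, lowest in replicate 4, with the summit at most 74 bp from the pooled one.

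A weaker peak lay beside a second 5′ end of unc-104. It ran from 6995648 to 6995991, in an intron of the long isoforms, with a pooled score of 44.3 and a rank of 1023 of 1033. Its summit was 112 bp upstream of the 5′ end annotated at 6995932. Among library regions, those with the nearest summit ranked 21298, 646, 12308 and 6015 in replicates 1 to 4. In replicate 1 another overlapping region, with its summit at -152 bp from the pooled one, ranked 2716. Replicate 2 thus held the peak high in its list and the others did not.

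rab-3 encodes the small GTPase that marks synaptic vesicles and helps to bring them to release sites. It lies on chromosome II from 5721767 to 5727853 on the reverse strand. Its IDR peak, from 5725192 to 5725535, had a pooled score of 71.3 and a rank of 327. The summit lay in an intron, 2489 bp downstream of the first 5′ end and 634 bp before the start of the short isoform at 5724730. The region with the nearest summit scored 14.3, 31.8, 2.93 and 14.2 in replicates 1 to 4. Its ranks were 995, 246, 21551 and 1059. Replicate 3 was the low library, though a second overlapping region of that library, with its summit 289 bp away, ranked 1130. At the first 5′ end of rab-3 a pooled region from 5727644 to 5727987, with the summit in the 5′ UTR, reached 25.1, and it was overlapped in every library except replicate 3.

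unc-31 encodes CAPS, which primes dense-core vesicles for release. Its body spans 12773867 to 12788354 of chromosome IV, forward strand. The IDR peak, from 12773591 to 12773934, had a pooled score of 50.95 and a rank of 738, and its summit at 12773763 lay between genes, just before the first 5′ end. In replicates 1 to 4 its score was 10.2, 11.3, 7.30 and 19.2, with ranks of 2185, 2828, 2273 and 387. Replicate 4 held it highest, and the other libraries placed it close together. Upstream of the gene, 5 further pooled regions with scores of 22.3 to 34.4 lined the 5 kb before the first 5′ end, and none of them was in the IDR list.

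**Figure D1:**
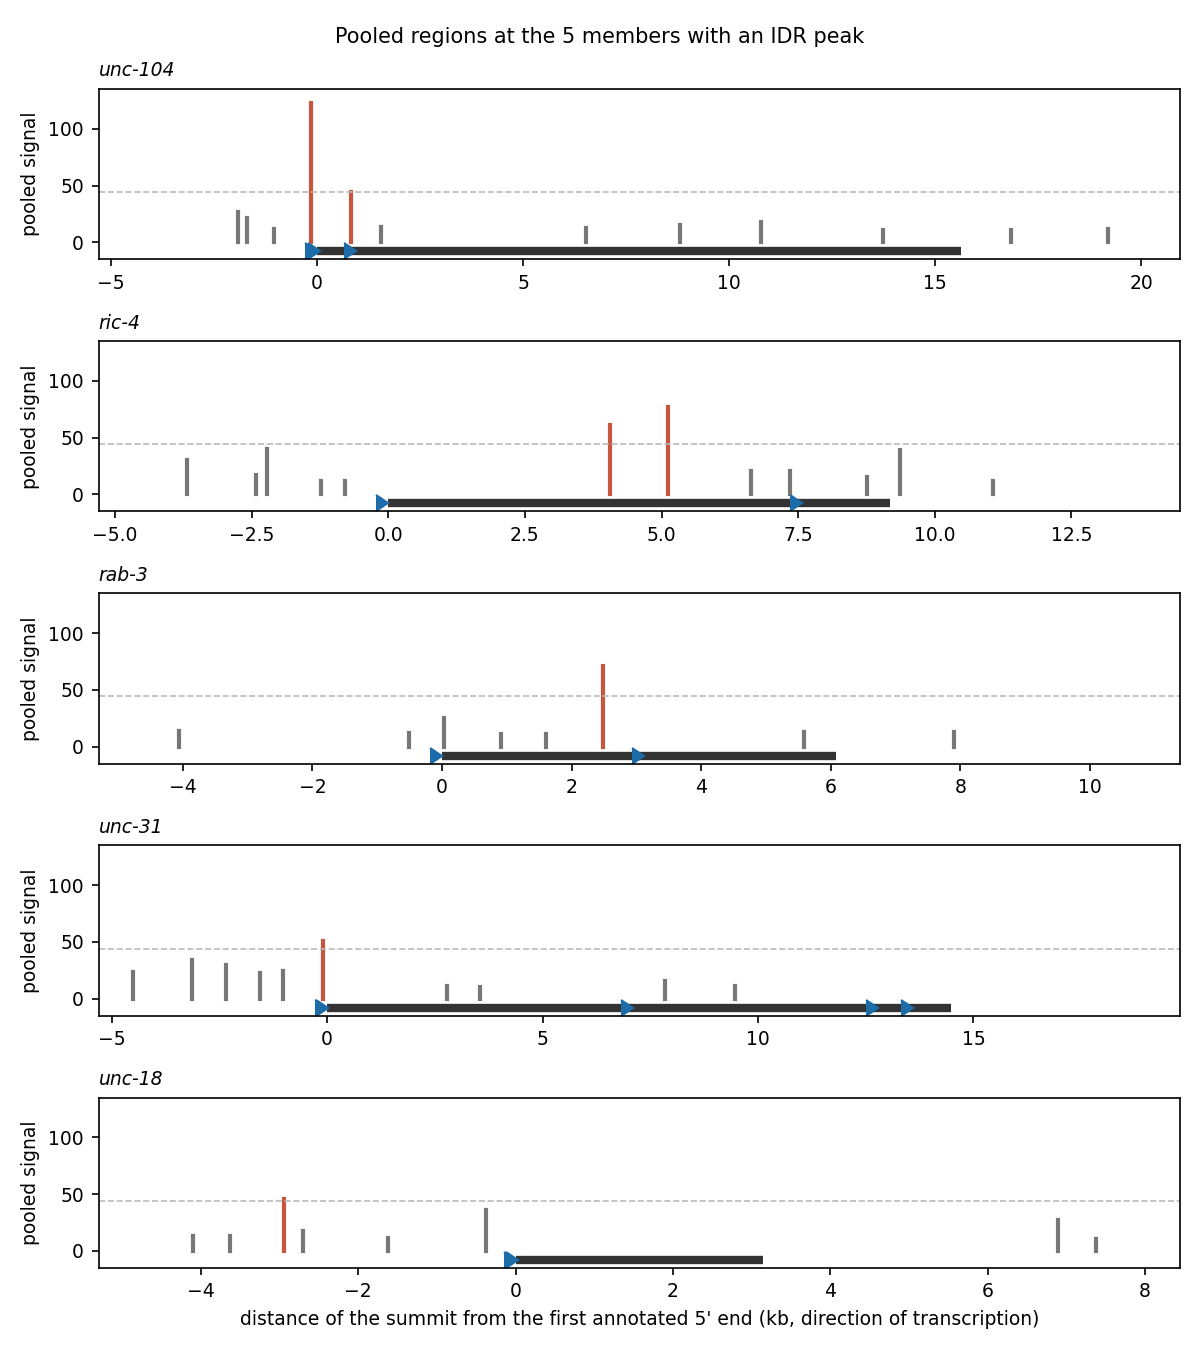
Pooled score of each region (vertical bars) against the distance of its summit from the first annotated 5′ end in kb, in the direction of transcription, at the 5 members with an IDR peak. Red bars are IDR peaks, grey bars other pooled regions, the black line is the gene body, blue triangles are annotated 5′ ends and the dashed line is the lowest score of an IDR peak, 44.2; the tallest bar is unc-104 at 122.9, and the ric-4 and rab-3 peaks lie inside the gene, between 5′ ends.

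ric-4 encodes SNAP-25, a SNARE protein of the plasma membrane. Its body spans 10261131 to 10270314 of chromosome V, reverse strand, with annotated 5′ ends at 10270314 and 10262743. Both IDR peaks lay between these ends. The stronger, from 10265024 to 10265367, had a pooled score of 76.9 and a rank of 272, with its summit in an intron 2453 bp upstream of the second 5′ end. It scored 20.1, 40.3, 4.45 and 8.84 in replicates 1 to 4, and ranked 451, 131, 10074 and 5399. Replicates 1 and 2 were high and replicates 3 and 4 low, with no overlap in rank.

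The other ric-4 peak, from 10266082 to 10266425, had a pooled score of 61.0 and a rank of 482. Its summit also lay in an exon of the non-coding gene Y22F5A.10, annotated within the ric-4 intron. The region ranked 476 in replicate 1, 509 in replicate 2 and 3524 in replicate 4, and replicate 3 had no overlapping region. Of the 7 IDR peaks at the members it was the 1 not found in all 4 libraries. Over the whole IDR list, 83.4% of peaks were overlapped in all 4. Outside the gene, ric-4 had further pooled regions of 39.6 and 38.7, the former 2218 bp upstream of the first 5′ end and the latter 179 bp beyond the 3′ end of the gene.

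unc-18 encodes the Munc18 protein that binds syntaxin and is needed for SNARE assembly. It lies on chromosome X from 7682896 to 7686037 on the forward strand. The IDR peak, from 7679785 to 7680128, had a pooled score of 45.9 and a rank of 928. Its summit was 2939 bp upstream of unc-18 and inside an intron of the neighbouring gene stn-2, 662 bp from the 5′ end of that gene, so the peak is nearer to stn-2 than to unc-18. The ranks in replicates 1 to 4 were 5869, 958, 380 and 12562. Replicates 1 and 2 held a low and a high value, and replicates 3 and 4 a high and a low value. Directly upstream of unc-18, 377 bp from its first 5′ end, a pooled region of 36.2 fell short of the IDR list. It ranked 3183, 979 and 753 in replicates 1, 2 and 4 and had no counterpart in replicate 3.

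**Figure D2:**
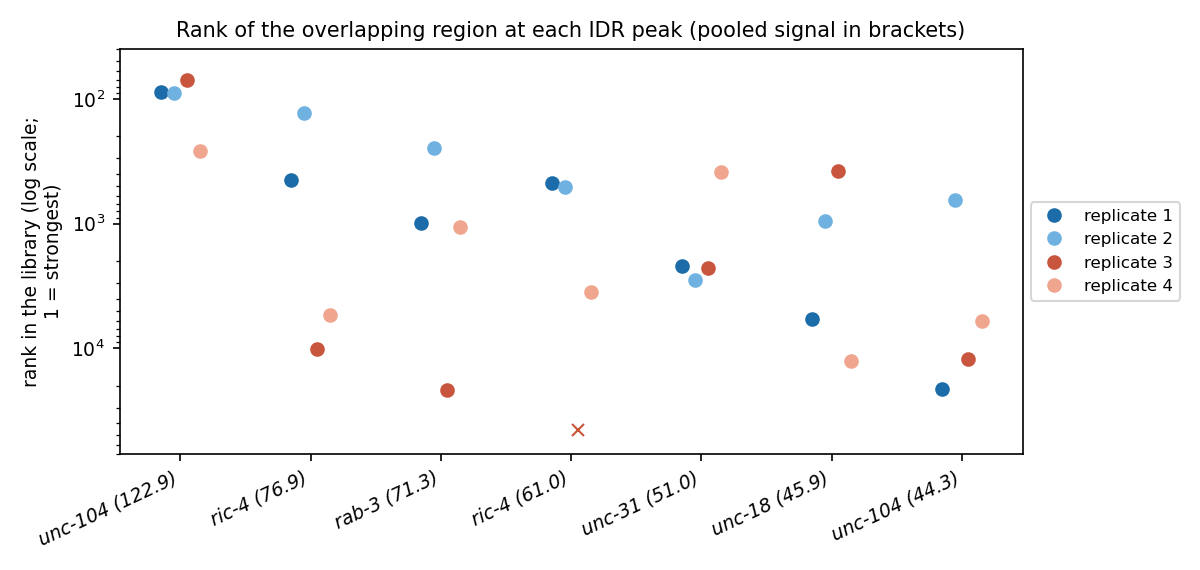
Rank in each library of the region whose summit is nearest to each of the 7 IDR peaks, on a log axis with 1 the strongest. Points are libraries (blue replicates 1 and 2, red replicates 3 and 4), the cross stands for no overlapping region, and the value in brackets is the pooled score; the first unc-104 peak stays between ranks 71 and 261, while the second spreads from 646 to 21298.

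The other 5 members had no IDR peak. unc-13 encodes the Munc13 priming factor of synaptic vesicles. The gene covers 7422785 to 7454116 of chromosome I, forward strand, and is the longest member. Its window, the longest of the members, held 31 pooled regions, the most of any member. That is 7.5 per 10 kb, below the 9.05 per 10 kb of snt-1. The strongest, from 7417960 to 7418303 and 4653 bp upstream of the first 5′ end, reached 41.7 and ranked 1158, just under the IDR list. It had a score of 19.6 in replicate 1, 20.4 in replicate 2 and 16.4 in replicate 3, and replicate 4 had no region there. Its ranks were 478, 749 and 127. The strongest unc-13 region of replicate 4 lay elsewhere, in the gene body with its summit at 7435319, and ranked 403.

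unc-10 encodes RIM, the active zone scaffold that tethers vesicles through rab-3. It lies on chromosome X from 7272317 to 7280322 on the reverse strand. Its strongest pooled region, from 7281374 to 7281717 and 1224 bp upstream of the first 5′ end, reached 41.5 and ranked 1166. Its ranks were 1310, 883 and 3768 in replicates 1, 2 and 4, and replicate 3 had no region there. A second region, 4742 bp upstream with a pooled score of 35.8, was present in every library, at ranks of 3067, 1327, 8580 and 4696.

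The remaining SNARE genes and the calcium sensor were lower. unc-64, the syntaxin gene, lies on chromosome III from 13277258 to 13283887 on the forward strand. Its strongest pooled region was intronic, 994 bp into the gene, with a score of 35.3. That region ranked 6990, 1468 and 4513 in replicates 1, 2 and 4, and replicate 3 had no region there. A pooled region of 26.7, 1412 bp upstream of unc-64, was found in every library, at ranks of 4785, 3018, 2677 and 3014. snt-1, a synaptotagmin and calcium sensor of release, lies on chromosome II from 6810963 to 6816433 on the forward strand. Its strongest pooled region, at 38.0, lay 3276 bp beyond the 3′ end of the gene. It ranked 21592, 2189, 17318 and 1136 in replicates 1 to 4, high in replicates 2 and 4 and low in replicates 1 and 3.

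snb-1 encodes synaptobrevin, the SNARE protein of the vesicle. The gene covers 6655562 to 6656501 of chromosome V, reverse strand, and is the shortest member at 940 bp. It had the lowest maximum of the members, 29.1, in a region 2483 bp upstream. That region was found in all 4 libraries, at ranks of 1908, 2886, 2735 and 7970. Just past the 5 kb limit the nearest IDR peaks outside were 5407 bp from the body of snb-1 (65.5), 5655 bp from snt-1 (69.7), 7171 bp from unc-10 (44.2) and 8272 bp from unc-64 (47.8). Of the peaks inside the limit, the farthest was that at unc-18.

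The order of the members by their strongest pooled region was unc-104 (122.9), ric-4 (76.9), rab-3 (71.3), unc-31 (50.95), unc-18 (45.9), unc-13 (41.7), unc-10 (41.5), snt-1 (38.0), unc-64 (35.3) and snb-1 (29.1). The pooled scores have no replicate error of their own, so the order was read beside the strongest window region of each library. That region need not be the same in every library, nor the pooled one. At ric-4 it was an upstream region in replicates 3 and 4, ranked 4069 and 906, where the stronger IDR peak ranked 10074 and 5399. Windows also differ in length, from 10940 bp at snb-1 to 41332 bp at unc-13. The ranks therefore describe the windows and are not replicates of the pooled score. The median rank of the strongest region over the 4 libraries was 88.5 at unc-104, 440.5 at unc-13, 678.5 at ric-4, 855.5 at unc-18, 907.5 at rab-3, 1096.5 at unc-10, 1341 at unc-64, 1930.5 at snt-1, 2229 at unc-31 and 2677 at snb-1. The lead of unc-104 held in 4 of 4 libraries, with no other member ranked higher in any of them. Its range of 71 to 261 over the libraries still overlapped that of ric-4, 131 to 4069, and the ranges of the neighbours lower in the order overlapped too. unc-31 moved from the fourth place by pooled score to the ninth by median rank, and unc-13 from the sixth to the second.

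**Figure D3:**
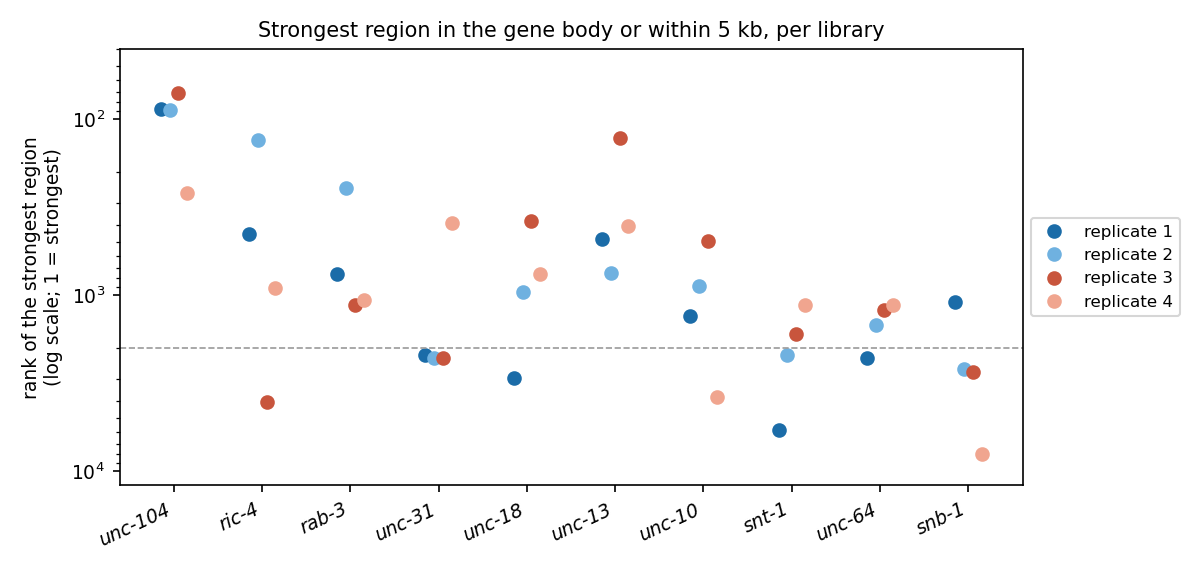
Rank of the strongest region in the gene body or within 5 kb of it for each member and library, on a log axis with 1 the strongest; members are ordered by pooled score and the dashed line marks rank 2000. Points are libraries, and unc-104 lies above the other members in each library, at 71 to 261.

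A region among the 2000 strongest of the library lay at 6, 7, 7 and 8 members in replicates 1 to 4, on average 7.0 ± 0.82 (SD, n = 4). The same shares of all protein-coding genes were 19.3%, 19.2%, 20.2% and 19.9%, not matched for gene length. The mean was 6.5 in replicates 1 and 2 and 7.5 in replicates 3 and 4. unc-104, rab-3 and unc-13 had such a region in 4 of 4 libraries, and unc-31 and snb-1 in 1. The share of all protein-coding genes with such a region in 4 of 4 libraries is not given. These counts were not adjusted for the window, which was 41332 bp at unc-13 and 10940 bp at snb-1. The region need not be the same in every library, and at unc-13 the strongest of replicate 4 lay apart from that of replicates 1 to 3. Over all 30000 regions of each library, the members' windows held 119, 131, 92 and 115 regions in replicates 1 to 4, a mean of 114.25 ± 16.32 (SD, n = 4). That is 592.3, 652.0, 457.9 and 572.4 per Mb, against 299 per Mb of the nuclear genome in each library. Replicate 3 had the fewest, and all 4 libraries lay above the genome's density.

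Within the members' windows, pooled regions were densest upstream of the genes. Of the 119 pooled regions at the members, 49 lay in the 5 kb before the first 5′ end (9.80 per 10 kb), 53 in the gene bodies (5.25 per 10 kb) and 17 in the 5 kb after the gene (3.40 per 10 kb). Their median pooled scores were 17.4, 14.3 and 13.9. The same split is not given for all protein-coding genes, so it is not shown to be particular to the members. The 5 kb before a gene can also hold part of a neighbour, such as stn-2 at unc-18. The IDR peaks fell 3 upstream, 4 in bodies and 0 downstream. The ric-4, rab-3 and unc-18 peaks lay more than 1000 bp from the first 5′ end of their member gene, but the rab-3 peak and the second unc-104 peak lay within 1000 bp upstream of another annotated 5′ end of their gene. In the promoter window, which runs from 1000 bp before to 200 bp after any annotated 5′ end, 3 members had an IDR summit, against 2.63% of protein-coding genes. By annotation, 47 of the 119 pooled summits lay in introns (39.5%), 54 between genes (45.4%) and 13 in coding exons (10.9%), against 33.4%, 43.8% and 12.4% of all nuclear pooled regions.

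Overlap between libraries was also counted for the weaker regions. Of the 119 pooled regions at the members, 26 (21.8%) were overlapped in all 4 libraries and 27 (22.7%) in a single library. Over the whole pooled list 11.9% were overlapped in all 4 and 26.1% in a single library. Leaving out the IDR peaks, 20 of 112 (17.9%) at the members were overlapped in all 4, against 8.85%. The members' windows also held more library regions per Mb than the genome, and an overlap of 1 bp counts. These shares were not adjusted for that density. The unc-13 region from 7435001 to 7435344 is an example of the other kind: its pooled score was 24.1, replicate 4 held it at rank 403, and the other libraries had no region there.

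A longer list of 92 other genes of vesicle traffic and release was described in the same way. An IDR peak lay at 27 of them (29.3%), against 10.6% of all protein-coding genes, and the median of their strongest pooled score was 30.9, against 17.7 for all protein-coding genes and 43.8 for the members. Of these genes, 46 have a body of 5 kb or more, and 18 of the 46 had an IDR peak, against 16.6% of all protein-coding genes of that length. By role, a peak lay at 3 of 9 transport genes, 8 of 21 active zone and release regulators, 3 of 19 SNARE and synaptotagmin relatives, 2 of 9 vesicle proteins and transporters, 2 of 14 genes of vesicle membrane recycling, 6 of 15 of dense-core vesicle making and cargo processing, and 3 of 5 channels of the terminal. In the libraries, 42, 47, 39 and 45 of the 92 had a region among the 2000 strongest, against 19.3%, 19.2%, 20.2% and 19.9% of all protein-coding genes in replicates 1 to 4. Gene length was matched only for the IDR counts of the list as a whole. The median body was 4994 bp in the 92, 7318 bp in the members and 2032 bp in all protein-coding genes. By role it ran from 2681 bp for SNARE and synaptotagmin relatives to 13159 bp for channels. The scores and role counts were not adjusted for this.

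**Figure D4:**
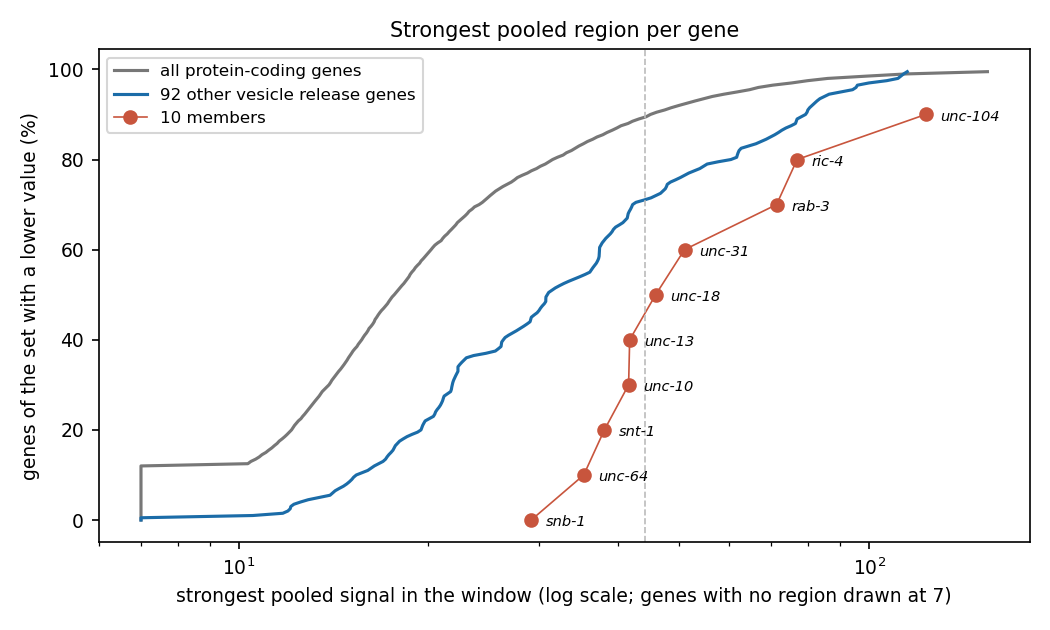
Share of genes with a lower strongest pooled score (vertical axis, %) against that score on a log axis, for all protein-coding genes (grey), 92 other vesicle release genes (blue) and the 10 members (red points), with genes that have no region drawn at the left edge. The dashed line is the lowest score of an IDR peak, 44.2. The medians were 17.7, 30.9 and 43.8, not matched for gene length, and members were chosen with these scores known.

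Transport genes with a peak were the kinesin-1 heavy chain gene unc-116 (68.9), the kinesin adaptor gene unc-76 (62.4) and jip-1, whose strongest peak reached 113.1 in an intron. Among regulators the peaks were at pkc-1, a protein kinase C (110.6, intronic, ranks 382, 234, 69 and 79), rpm-1 (83.3), the kinase gene sad-1 (80.0), the RhoGEF gene unc-73 (79.5), syd-1 (71.3), the rabphilin gene rbf-1 (61.6), the G protein gene goa-1 (49.9) and the CaM kinase II gene unc-43 (47.9). At goa-1 the peak lay in a coding exon of a neighbour and nearer the 5′ end of another gene. The SNARE and synaptotagmin relatives with a peak were nsf-1, the ATPase that takes SNARE complexes apart (76.4), syx-5 (47.6) and snt-7 (46.7).

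Of the vesicle protein and transporter genes, scm-1 (73.3) and sng-1, the synaptogyrin gene (61.9), had a peak, both nearer the 5′ end of another gene. Of membrane recycling genes, apb-1, an adaptor subunit (95.0, 215 bp upstream), and unc-41, the stonin gene (53.9), had one. Of dense-core vesicle genes there were pamn-1 for peptide amidation (116.5), the Rab2 gene unc-108 (86.4), the proprotein convertase gene egl-3 (81.6), hid-1 (66.2), ric-19 (51.6) and ida-1 (45.0). Among channels the peaks were at ccb-1, a calcium channel beta subunit (96.0), egl-19, the L-type channel (76.9, ranks 338, 409, 303 and 241), and unc-2, the presynaptic calcium channel (55.5). Of these 27 genes, 20 had a peak whose nearest protein-coding 5′ end is their own. At rpm-1, hid-1, syx-5 and ric-19, as at goa-1, scm-1 and sng-1, the nearest was that of another gene. The strongest pamn-1 peak lay 1484 bp beyond the 3′ end of the gene. The 4 with the strongest pooled region were pamn-1, jip-1, pkc-1 and ccb-1.

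Ranks of the strongest window region were compared with those of unc-104 over the 4 libraries. The nearest genes outside both lists, by Euclidean distance of log10 ranks, were C15F1.1 (0.00), mpz-1 (0.205) and C15C8.4 (0.27, tied with C15C8.5 and others of one window). C15F1.1 is the neighbour upstream of unc-104, and its window holds the same region. mpz-1 had ranks of 106, 98, 63 and 392. The comparison rests on 4 values per gene.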

How the data were processed

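The values are ranked region lists of ChIP-seq on 4 replicate libraries, each with a control, and the control itself is not analysed here. The authors deposited, per the file headers and file records, a list of called regions for each library, a list called on the 4 alignments pooled, and an IDR-thresholded list, on ce11. No source used here gives the aligner, the caller or its settings. The score of each region is the authors' deposited value, against a control and on a scale that is not stated, and the summit is the authors' deposited distance from the region start. Scores were read only within a list. Because each library list is cut at the same number of regions, a rank depends on the other regions of that library, and a missing region means only that none was listed. Lists on the older build ce10 were not used.

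Summits were assigned to genes of Ensembl release 115 (WBcel235), in the gene body or within 5 kb, so a summit can count for several genes. A region was found in a library where they overlap by at least 1 bp, and values are those of the region with the nearest summit. The counting was checked on simulated lists. Python 3.11.15, numpy 2.4.6, pandas 2.3.3 and matplotlib 3.10.9 were used. The members and lists were chosen with earlier results of these data known, so no p-value was computed. Of 95 symbols in the list of other release genes, 92 matched the annotation. Genes are named by rule: all members, every other release gene with an IDR peak, the 4 of those with the strongest pooled region, the gene nearest to a member's IDR peak where it is not the member, and the 3 genes most like unc-104 in rank. Individual unc-13, unc-31, unc-10, unc-64, ric-4, unc-18 and rab-3 regions outside the IDR list were picked after their values were seen. Alternatives were other windows, thresholds and overlaps, and leaving out each library.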

Additional observations from a re-analysis of the deposited data

Results flagged for a closer look

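Among 28 sets of 4 library values (16 of them ranks), 4 held a library far from the others, by the gap to its nearest neighbour as a share of the range, against Dixon's 95% critical value. Chance flags about 1 in 20 sets where values are normally distributed, which was not shown for these skewed ranks. The strongest unc-104 region, which is also its first IDR peak and so counts in 2 of the 4, ranked 261 in replicate 4, against 88, 89 and 71 in replicates 1 to 3, with a share of 0.905 on ranks and 0.826 on log10 ranks. The strongest unc-31 region ranked 387 in replicate 4, against 2185, 2277 and 2273, with shares of 0.951 and 0.977. The rab-3 peak ranked 21551 in replicate 3, against 995, 246 and 1059, with shares of 0.962 and 0.674. On log10 ranks, a measure added after seeing the data, 2 of the 16 sets passed the critical value. They were the strongest region and the IDR peak of unc-31, which share their values in replicates 1, 3 and 4. The unc-104 and rab-3 sets did not pass. The part of library preparation in these gaps was not tested.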

How the results depend on the processing

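The 5 members with an IDR peak became 3 with gene bodies only, 3 in the promoter window and 3 in the upper 517 IDR peaks, and 4 where the nearest protein-coding 5′ end had to be the member's, an alternative chosen after seeing the data. The 27 other release genes became 13 with gene bodies only and 9 in the promoter window. The 6 peaks found in all 4 libraries became 3 with gene bodies only, 3 in the upper 517 peaks and 3 against the 10000 strongest regions of each library. The mean of 7.0 members with a region among the 2000 strongest became 2.75 with gene bodies only, 5.50 with 2 kb on each side, 3.25 in the promoter window, 4.75 for the 1000 strongest and 9.50 for the 5000 strongest. The mean of 114.25 regions per library became 50 with gene bodies only, 81.25 with 2 kb, 14.5 in the promoter window and 87.5 for the nearest gene body. Narrower windows hold fewer summits by construction. For these alternatives a share of all protein-coding genes is given only for IDR summits in the promoter window, 2.63%. The other counts cannot be set against all genes. Leaving out each replicate gave 6 to 7 peaks found in all remaining libraries (7 without replicate 3), 6.67 to 7.33 members and 108.67 to 121.67 regions. No paired analysis was possible because there is 1 group. The depth of the libraries is unknown.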
